A study of Mus musculus with 12 samples.

Results

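The circadian clock is a loop of transcription factors that most cells of the body run. CLOCK, or its close relative NPAS2, pairs with BMAL1 (the product of *Arntl*) and binds E-boxes in the promoters of the *Per* and *Cry* genes, whose proteins return to the nucleus and shut CLOCK and NPAS2 off again. The same activators drive *Nr1d1* and *Nr1d2*, which encode the nuclear receptors REV-ERBα and REV-ERBβ that repress *Arntl*, and output genes such as *Dbp* and *Tef*, whose proteins bind D-boxes in further targets. Transcripts of *Dbp*, *Nr1d1* and the *Per* genes therefore rise and fall over the day, in most mouse tissues in a phase roughly opposite to that of *Arntl* and *Npas2*. In the hippocampus, the clock is known for its link to the daily change in memory performance.

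The genes examined here have these roles and were chosen by their symbols: *Clock*, *Npas2*, *Per2*, *Per3*, *Cry1*, *Cry2*, *Nr1d1*, *Nr1d2*, *Dbp* and *Tef*. They are 10 of the 37991 genes in the count files, and all 10 were among the 16399 genes that passed the expression filter. The study sequenced poly(A) RNA from the hippocampi of 12 mice of the strain C57BL/6N, aged 6 to 7 months per the labels, that were killed 1 h after passive avoidance (PA) training, a task in which a mouse learns to stay out of a compartment where it received a foot shock. Of the libraries, 6 carry the genotype label wild type (*Gadd45a*-WT) and 6 carry the label *Gadd45a*-/- (*Gadd45a*-KO), and the animals came from crosses of heterozygotes. The knockout is constitutive, with the first exons of *Gadd45a* replaced by a neomycin resistance cassette and the last exon left in place. Each library is one mouse, and all of them were trained, so that the clock genes before training were not analysed here.

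Between 44594261 and 55540601 reads per library fell on genes. Of reads on a gene, on no feature or ambiguous, the share on no feature was 14.4% to 15.8% under the *Gadd45a*-WT label. Under the *Gadd45a*-KO label this share was 13.0% to 14.3%, so that the labels did not overlap, and the cause was not tested. The count of the targeted gene was higher under the *Gadd45a*-KO label: *Gadd45a* lay between 2.19 and 3.43 CPM (reads scaled to the effective library size) in the libraries labelled *Gadd45a*-WT. In the other label it lay between 20.5 and 23.1 CPM, so that the log2 fold change reached 3.06 (adjusted p = 1.33e-10, edgeR). Counts per gene do not separate the exon that remains from those that were replaced. *E230016M11Rik*, a gene on the other strand that overlaps the *Gadd45a* locus, had 147 to 194 reads per library under the *Gadd45a*-WT label and 4 to 14 under the *Gadd45a*-KO label, a mean of 4.67% of that of the first label (adjusted p = 2.4e-09, edgeR). The labels thus separate 2 genes of the targeted locus without overlap, in opposite directions. All groups below are therefore the libraries labelled *Gadd45a*-WT and *Gadd45a*-KO, and each direction given depends on those labels. Of the 10 hippocampal neuron markers, 9 passed the expression filter, and the summed level was 1300 to 1406 CPM under the *Gadd45a*-WT label and 1070 to 1332 CPM under the *Gadd45a*-KO label, with *Pou3f1* at a mean of 0.0665 CPM. Thalamic markers were highest in *Gadd45a*-KO replicates 2 and 3, at 342 and 519 CPM in sum, against 96.7 to 142 CPM in the other 10 libraries. All 10 thalamic markers were detected and 9 passed the filter. Oligodendrocyte markers summed to 7702 CPM in *Gadd45a*-KO replicate 3 and to 2430 to 3915 CPM elsewhere.

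Promoter stretches that hold the letters of known clock motifs are shown first, since these motifs belong to the loop described above. RefSeq promoters (GRCm38.p6, from 250 bases before to 50 bases after the annotated start) matched 9 of the 10 members with 12 promoters. The promoter of *Per2* is not among them. Each stretch runs 5′ to 3′ on the strand of the gene, and the motif stands in capitals.
*Cry1*, E-box variant and E-box, chr10:85185108-85185134, minus strand: aAACGTGaggtgccggtggtCACGTGg
*Cry2*, E-box variant, chr2:92434219-92434246, minus strand: cacatggtgggAACGTGagggggcggag
*Nr1d1*, E-box variant, chr11:98775389-98775416, minus strand: gcacagatctcAACGTGccggctgctgg
*Tef*, E-box of the first promoter, chr15:81802535-81802562, plus strand: tgctgtggctcCACGTGctgcagctggc
*Tef*, E-box of the other promoter, chr15:81811265-81811292, plus strand: acctggcccagCACGTGtctacatcgtt
*Per3*, D-box, chr4:151044853-151044880, minus strand: gacccgcgcgTTATGTAAggtactcggg
*Per3*, D-box, chr4:151044806-151044833, minus strand: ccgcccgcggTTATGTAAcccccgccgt
*Clock*, REV-ERB/ROR motif, chr5:76303605-76303632, minus strand: gctttggcctcTGACCTgacagatgaca
*Nr1d2*, REV-ERB/ROR motif, chr14:18239167-18239194, minus strand: attggaagaagAGGTCAggaccgctcgt

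The motifs were searched on both strands as CACGTG for the E-box, CACGTT for its variant (read as AACGTG on the other strand), TTATGTAA and TTACGTAA for the D-box, and AGGTCA for the REV-ERB/ROR receptors (read as TGACCT on the other strand). None of these letter strings contains another. AGGTCA is only a part of a full REV-ERB/ROR site, and the bases beside it were not searched. In the stretches of *Clock* and *Nr1d2*, the name REV-ERB/ROR motif stands for these letters only. CACGTG stood in 3 of the 12 member promoters and in 7.15% of all 32851 promoters of this length. CACGTT also stood in 3 member promoters, against 4.68% of all. The 2 D-boxes of *Per3* begin at -205 and -158 from its start, and TTATGTAA occurs in 0.938% of all promoters. TTACGTAA was in none of the members' promoters and in 0.119% of all. AGGTCA was in 2 of the 12 member promoters and in 16.3% of all. No searched motif lay in these windows for *Npas2* and *Dbp*. A match of letters describes the sequence, and binding was not measured.

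The first question the design asks is whether the clock genes differed between the labels. One of the 10 members, *Clock*, was lower in the libraries labelled *Gadd45a*-KO at the study's threshold of 1% FDR, and no member was higher. Among all genes tested, 2.62% were lower (430 genes) and 0.0244% were higher (4 genes) by the same rule. At 5% FDR, *Per2* joined *Clock* among the members that were lower, where 4.43% of all genes were lower and 0.122% were higher. The median log2 fold change of the members was -0.06, against 0.00330 over all genes tested, and 7 of 10 were negative, where 48.2% of all genes were. In 3 members (*Clock*, *Per2* and *Cry2*), the unadjusted p was under 0.05, against 13.7% of all genes. The count of all genes lower depended on single libraries: it was 268, 239 and 261 without *Gadd45a*-WT replicates 3, 5 and 6, and 248, 276 and 248 without *Gadd45a*-KO replicates 1, 2 and 6. *Clock* was the lone member called in each of these fits.

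**Figure D1:**
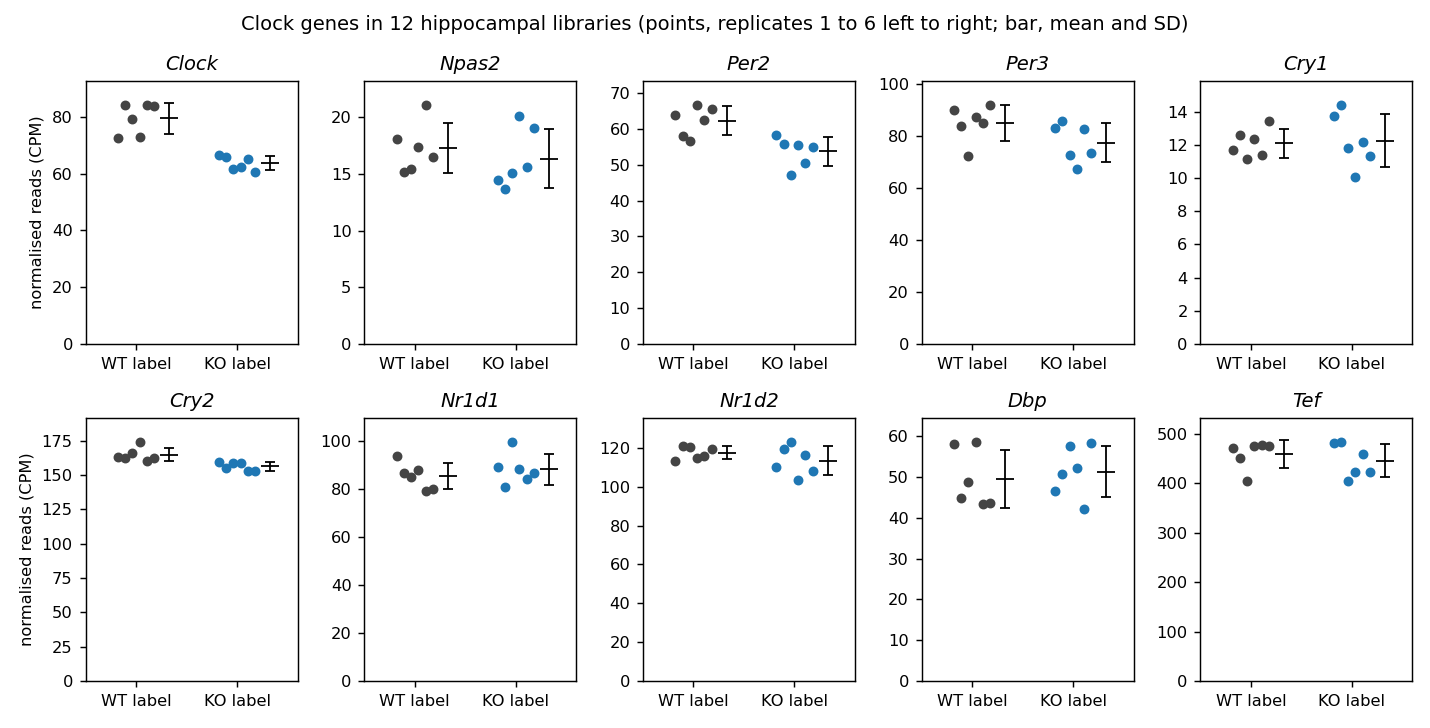
CPM of the 10 clock genes (y axis, from 0) in the 6 libraries of each label (x axis), 1 point per mouse, with the mean and SD drawn beside the points. The points of the labels do not overlap for Clock (72.6 to 84.2 against 60.6 to 66.6 CPM) and Cry2 (160 to 174 against 153 to 160 CPM), and overlap for the other 8 genes. Over all genes tested, the points do not overlap in 3.12% with the Gadd45a-KO label below and in 0.183% with it above.

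*Clock* (ENSMUSG00000029238, chromosome 5, 76639992 to 76733817, minus strand, NCBIM37), the partner of BMAL1, had 2992 to 4426 reads per library. It lay at 72.6, 84.1, 79.1, 73.0, 84.2 and 84.0 CPM in *Gadd45a*-WT replicates 1 to 6 and at 66.6, 65.8, 61.6, 62.4, 65.2 and 60.6 CPM in *Gadd45a*-KO replicates 1 to 6. The highest *Gadd45a*-KO value was below the lowest *Gadd45a*-WT value, a separation seen in 3.12% of all genes in this direction and in 0.183% in the other. The mean fell from 79.5 ± 5.51 to 63.7 ± 2.48 CPM (SD, n = 6 each), which is 80.1% of the *Gadd45a*-WT mean. The log2 fold change was -0.32 with a standard error of 0.05 and a 95% confidence interval of -0.42 to -0.22 (adjusted p = 0.000716, quasi-likelihood test of edgeR, Benjamini-Hochberg). An exact two-sided permutation test of the difference in mean log2 CPM gave p = 0.00216, the smallest that 6 against 6 libraries allow. As these are whole hippocampi, fewer cells of a type and less RNA per cell cannot be told apart for this or any other gene.

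By annotation, *Clock* is a long transcript, and transcript length moved with the calls. Here and below, transcript length is that of all annotated exons of a gene merged, which need not be that of the transcript expressed. Of the 1163 genes with an annotated exon length of at least that of *Clock* (8832 nt), 13.7% were lower at 1% FDR, against 1.77% of the 15202 shorter genes. With a smooth offset for transcript length, the log2 fold change of *Clock* was -0.25 and the adjusted p was 0.000722. With the summed thalamic markers as a covariate, it was -0.32 (adjusted p = 0.00305), and with the summed oligodendrocyte markers -0.31 (adjusted p = 0.00545). Without *Gadd45a*-KO replicates 2 and 3, in which the thalamic markers were highest, it was -0.32 (adjusted p = 0.00531). *Clock* passed 1% FDR in all 24 alternative fits, with log2 fold changes between -0.34 and -0.25.

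*Npas2* (ENSMUSG00000026077, chromosome 1, 39250576 to 39420079, plus strand), the forebrain relative of *Clock*, did not pass the test. Its lowest, median and highest values were 15.1, 16.9 and 21.0 CPM under the *Gadd45a*-WT label and 13.7, 15.3 and 20.1 CPM under the *Gadd45a*-KO label, so that the groups overlapped widely. The log2 fold change was -0.08 (95% confidence interval -0.30 to 0.14, adjusted p = 0.835, edgeR). *Arntl*, whose product is the partner of both activators, was at 39.2 ± 2.54 CPM under the *Gadd45a*-WT label and 37.8 ± 2.73 CPM under the *Gadd45a*-KO label (SD, n = 6 each). Its log2 fold change was -0.05 (adjusted p = 0.768). The 95% confidence interval of *Arntl* ran from -0.17 to 0.06, so that the estimate for the partner of *Clock* was bounded more closely than that for *Npas2*.

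*Per2* (ENSMUSG00000055866, chromosome 1, 93312561 to 93355907, minus strand) encodes a repressor of CLOCK and BMAL1 that in the central clock of the brain also responds to light. It lay at 63.9, 58.0, 56.6, 66.6, 62.3 and 65.4 CPM in *Gadd45a*-WT replicates 1 to 6 and at 58.3, 55.8, 47.2, 55.6, 50.4 and 55.0 CPM in *Gadd45a*-KO replicates 1 to 6. Only *Gadd45a*-KO replicate 1 reached into the range of the other label. The mean was 62.2 ± 4.03 against 53.7 ± 4.10 CPM (SD, n = 6 each), with a log2 fold change of -0.21 (standard error 0.06, 95% confidence interval -0.33 to -0.09). The adjusted p was 0.0418 (edgeR), which misses 1% and passes 5% FDR, and the exact permutation test gave p = 0.00649. The 5% call held with the GC offset (adjusted p = 0.0226), with DESeq2 (0.0150), with RLE factors (0.0484) and with both other filters on low counts (0.0498 and 0.0483). The call also held with a block for replicate number, which was not taken to pair the mice. The adjusted p was 0.00861 with the block alone (edgeR), 0.00771 with the GC offset added and 0.0258 with the length offset added. Without the block, the call did not hold with the offset for transcript length (adjusted p = 0.137). It did not hold with the thalamic or oligodendrocyte covariate (0.192 and 0.263) or without *Gadd45a*-KO replicates 2 and 3 (0.133). It held in 3 of the 12 fits that left out one library, those without *Gadd45a*-WT replicate 2, *Gadd45a*-WT replicate 3 or *Gadd45a*-KO replicate 1 (0.0467, 0.0354 and 0.0415), and in the other 9 the adjusted p was 0.0657 to 0.127.

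*Per3* (ENSMUSG00000028957, chromosome 4, 150377761 to 150418774, minus strand) lacks the essential role of its relatives in keeping the rhythm. Its lowest, median and highest values were 72.3, 85.9 and 91.8 CPM under the *Gadd45a*-WT label and 67.1, 78.0 and 85.6 CPM under the *Gadd45a*-KO label. The groups overlapped, and the log2 fold change of -0.13 (95% confidence interval -0.28 to 0.01) did not pass the test (adjusted p = 0.409, edgeR). *Per1*, the third member of the family, was at 80.3 ± 8.68 CPM under the *Gadd45a*-WT label and 71.9 ± 5.04 CPM under the *Gadd45a*-KO label (SD, n = 6 each). Its log2 fold change was -0.16 (adjusted p = 0.297), so that all 3 *Per* genes had negative estimates and none passed 1% FDR in the fit without covariates.

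The cryptochromes are the main repressors in the loop. *Cry2* (ENSMUSG00000068742, chromosome 2, 92243803 to 92274200, minus strand) lay between 160 and 174 CPM under the *Gadd45a*-WT label, with a median of 163 CPM. Under the *Gadd45a*-KO label it lay between 153 and 160 CPM, with a median of 157 CPM. The groups did not overlap, as was the case for 3.12% of all genes in this direction. However, the highest library labelled *Gadd45a*-KO (159.6 CPM) was within 1 CPM of the lowest labelled *Gadd45a*-WT (160.1 CPM). The difference was small, with a log2 fold change of -0.08 (standard error 0.03, 95% confidence interval -0.14 to -0.01). The exact permutation test gave p = 0.00216, and the adjusted p over all genes was 0.232 (edgeR), so that *Cry2* was not called.

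*Cry1* (ENSMUSG00000020038, chromosome 10, 84594447 to 84647799, minus strand) had 490 to 700 reads per library, the fewest of the members. Its mean was 12.1 ± 0.853 CPM under the *Gadd45a*-WT label and 12.2 ± 1.59 CPM under the *Gadd45a*-KO label (SD, n = 6 each). The log2 fold change was 0.02 (95% confidence interval -0.15 to 0.19, adjusted p = 0.958, edgeR), and its sign was negative in 7 of the 24 alternative fits.

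The REV-ERB receptors repress *Arntl* and are among the genes with the widest daily swing in many tissues. *Nr1d1* (ENSMUSG00000020889, chromosome 11, 98629246 to 98636647, minus strand) lay at 79.0, 85.8 and 93.5 CPM (lowest, median and highest) under the *Gadd45a*-WT label. Under the *Gadd45a*-KO label these values were 80.9, 87.4 and 99.6 CPM. The log2 fold change was 0.05 (95% confidence interval -0.07 to 0.16, adjusted p = 0.803, edgeR). The gene overlaps *Thra* on the other strand, which had up to 46564 reads in a library, and the counting took the strand into account. *Nr1d2* (ENSMUSG00000021775, chromosome 14, 19036568 to 19071641, minus strand) lay at 113, 118 and 121 CPM under the *Gadd45a*-WT label and at 104, 113 and 123 CPM under the *Gadd45a*-KO label. Its log2 fold change was -0.05 (95% confidence interval -0.14 to 0.04, adjusted p = 0.706), and the groups overlapped for both receptors.

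*Dbp* (ENSMUSG00000059824, chromosome 7, 52960458 to 52965525, plus strand) encodes a D-box activator and is a direct target of CLOCK and BMAL1 with one of the strongest rhythms in mammalian tissues. It lay at 58.2, 44.9, 48.8, 58.7, 43.4 and 43.6 CPM in *Gadd45a*-WT replicates 1 to 6 and at 46.7, 50.9, 57.7, 52.2, 42.2 and 58.3 CPM in *Gadd45a*-KO replicates 1 to 6. Within each label, the highest library was 1.35 or 1.38 times the lowest, and both labels covered nearly the same range. The mean was 49.6 ± 7.12 against 51.3 ± 6.25 CPM (SD, n = 6 each), with a log2 fold change of 0.05 (95% confidence interval -0.15 to 0.25, adjusted p = 0.900, edgeR). *Dbp* overlaps *Sphk2* on the other strand, which had at most 1436 reads in a library. *Tef* (ENSMUSG00000022389, chromosome 15, 81632851 to 81657291, plus strand), a D-box activator of the same family with a flatter rhythm, was the member with most reads (20252 to 26367 per library). It was at 459 ± 28.8 CPM under the *Gadd45a*-WT label and 446 ± 33.9 CPM under the *Gadd45a*-KO label, a log2 fold change of -0.04 (95% confidence interval -0.16 to 0.08, adjusted p = 0.839). The third gene of that family, *Hlf*, had a log2 fold change of 0.02 (adjusted p = 0.967), and *Nfil3*, which encodes a repressor at D-boxes, one of 0.05 (adjusted p = 0.873).

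**Figure D2:**
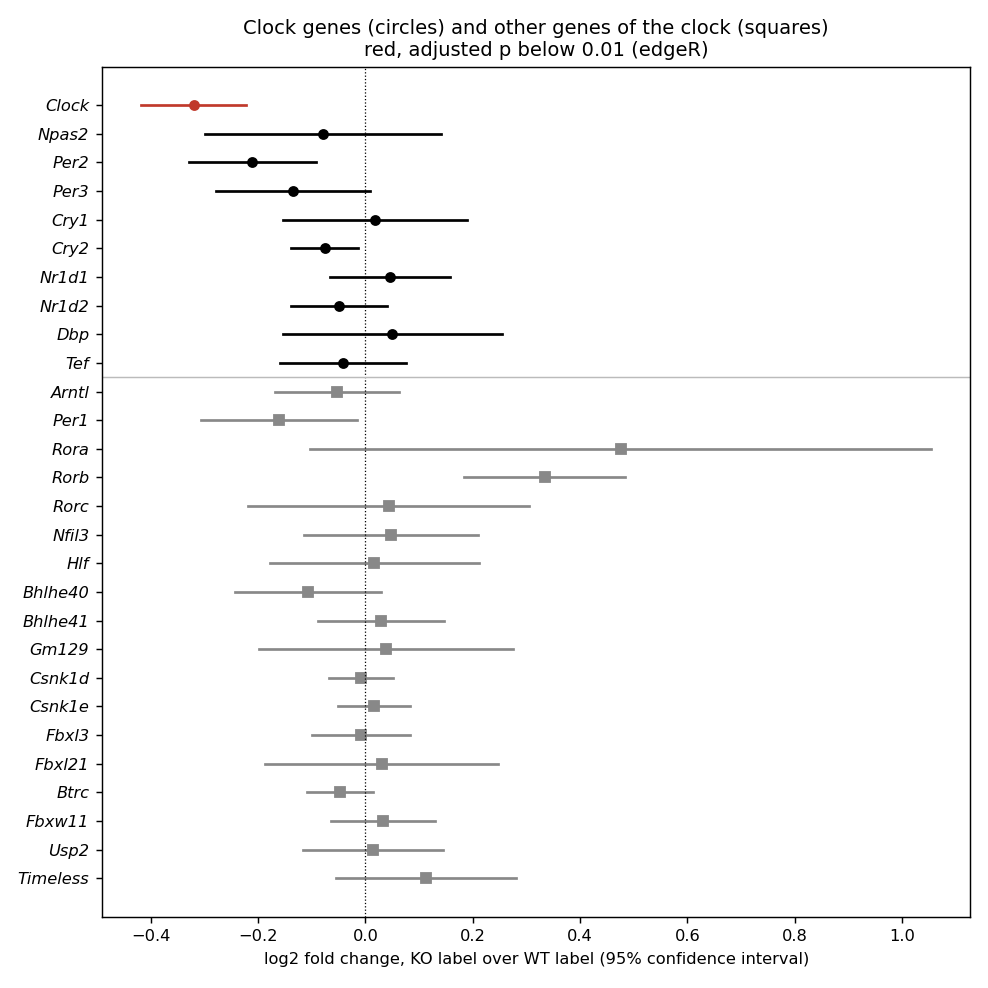
Log2 fold change of the libraries labelled Gadd45a-KO over those labelled Gadd45a-WT (x axis) for the 10 clock genes (circles) and 18 other genes of the clock (squares), with 95% confidence intervals as lines. Clock (-0.32) is the one gene in red, with an adjusted p below 0.01, and Rora has the widest interval (-0.10 to 1.05).

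Of 18 other genes of the clock that were listed, all 18 were tested, and 0 were lower and 0 were higher at 1% FDR by edgeR. Unadjusted, 2 of the 18 had a p under 0.05 (*Per1* and *Rorb*, edgeR), against 13.7% of all genes. DESeq2 called 1 of the 18 higher and 0 lower. The median log2 fold change of the 18 was 0.02, with 6 negative and 12 positive values, where 48.2% of all genes were negative. The genes named next were singled out after their values were seen. *Rorb*, which encodes a receptor that shares its DNA motif with the REV-ERBs, rose from 21.6 ± 1.76 to 27.2 ± 2.73 CPM (SD, n = 6 each) at 5% but not at 1% FDR, and its log2 fold change was 0.33 with a standard error of 0.07 (adjusted p = 0.0110, edgeR). It was 0.30 without *Gadd45a*-KO replicate 3 (adjusted p = 0.0200) and 0.39 without *Gadd45a*-KO replicate 1 (0.00270), and it was 0.28 with the thalamic markers as a covariate (0.0533). *Rora*, its relative, was at 30.5 to 37.3 CPM in the libraries labelled *Gadd45a*-WT and at 29.4 to 30.9 CPM in 4 of those labelled *Gadd45a*-KO, while *Gadd45a*-KO replicates 2 and 3 stood at 61.9 and 97.3 CPM. These are the 2 libraries with the highest thalamic marker sums, and without both of them the log2 fold change of *Rora* was -0.15 (adjusted p = 0.205) in place of 0.48 (0.492).

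Of the lists of genes that respond to training and stress, 12 immediate early genes were tested, 0 were called and 10 were negative (48.2% of all genes were), with a median log2 fold change of -0.12. Unadjusted, 2 of them had a p under 0.05 (edgeR), against 13.7% of all genes, and DESeq2 called 0 of the 12. The 10 glucocorticoid target genes, which follow the daily rise of corticosterone as well as stress, had a median of 0.05, with 0 called by edgeR or DESeq2 and 0 at an unadjusted p under 0.05 (edgeR). By edgeR at 1% FDR, *Clock* was the only gene called among the 10 members, 18 other clock genes, 12 immediate early genes and 10 glucocorticoid target genes, while DESeq2 called *Rorb* as well. Among all genes tested, edgeR called 2.62% lower and 0.0244% higher at that threshold.

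Levels were compared between genes per kb of all annotated exons of a gene merged, which need not be the length of the transcript expressed. Under the *Gadd45a*-WT label, *Tef* was the most abundant member at 58.4 ± 3.66 CPM per kb of exon (SD, n = 6). *Nr1d1* (27.3 ± 1.71), *Cry2* (26.1 ± 0.790) and *Nr1d2* (23.4 ± 0.664 CPM per kb) formed the next tier, in which *Nr1d1* and *Cry2* did not differ beyond their SDs. *Dbp* followed at 16.9 ± 2.42 and *Per2* at 10.6 ± 0.691 CPM per kb. *Clock* (9.0 ± 0.624) and *Per3* (8.84 ± 0.716 CPM per kb) had overlapping levels, as had *Cry1* (4.01 ± 0.283) and *Npas2* (3.60 ± 0.453 CPM per kb) at the bottom. The 2 related activators thus stood at different levels per kb, *Clock* above *Npas2* in every library.

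The next question was whether the spread between libraries fits a difference in the time of day at which mice were killed. No label gives that hour, so it could not be compared with the levels directly, and what was measured is how much the members varied within a label and which of them varied together. The SD of log2 CPM about the label means was 0.200 for *Npas2*, 0.191 for *Dbp*, 0.150 for *Cry1* and 0.132 for *Per3*, against a median of 0.116 over all genes tested. Among genes within a factor of 2 of its mean level, *Dbp* stood at percentile 94.5 of this SD, *Npas2* at 90.9 and *Per3* at 86.0. *Cry1* (75.8), *Per2* (74.9), *Nr1d1* (71.3), *Tef* (70.3), *Clock* (59.1) and *Nr1d2* (50.3) followed, and *Cry2* was among the steadiest genes at percentile 3.02. *Nr1d1*, like *Dbp* a gene known for a strong rhythm, had an SD of 0.0961, below the median of all genes.

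**Figure D3:**
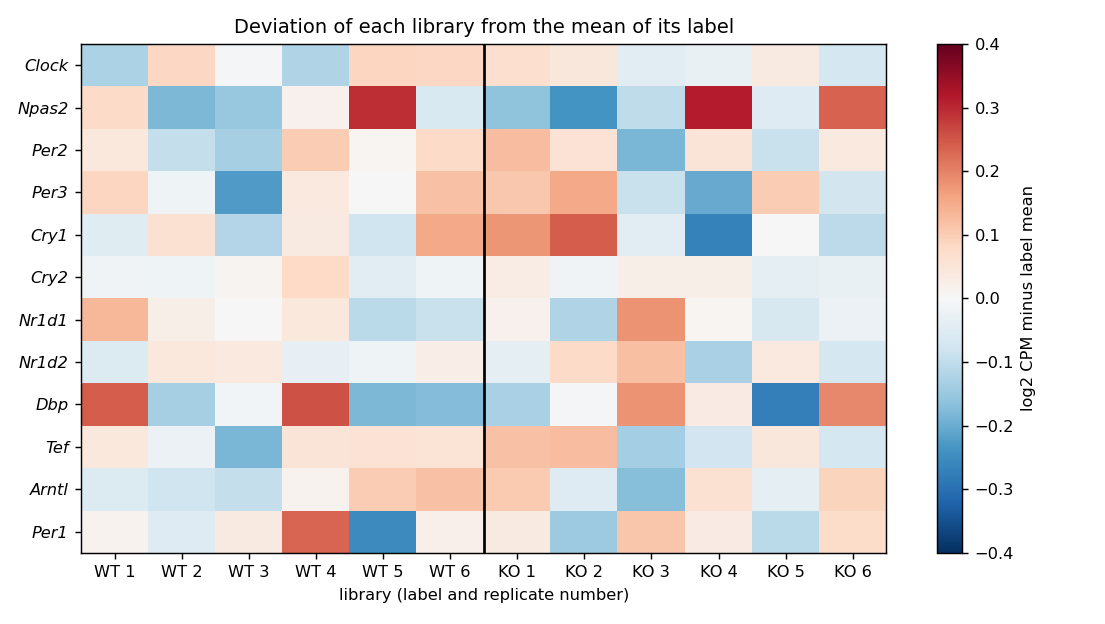
Difference between each library's log2 CPM and the mean of its label (colour, from blue for lower to red for higher) for the 10 clock genes, Arntl and Per1 (rows) in the 12 libraries (columns). Dbp is high in Gadd45a-WT replicates 1 and 4 (0.24 and 0.25) and in Gadd45a-KO replicates 3 and 6 (0.18 and 0.19), Npas2 in Gadd45a-WT replicate 5 and Gadd45a-KO replicates 4 and 6, and no column has 1 colour throughout.

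*Dbp* served as the reference for this question because of its strong rhythm. Its log2 CPM was correlated with the 9 other members, *Arntl* and *Per1* within each label, which gives 22 relations over 6 libraries each. None of the 22 had an adjusted p under 0.05 (exact permutation test over 720 pairings, two-sided, Benjamini-Hochberg). The smallest unadjusted p was 0.0125 and the smallest adjusted one 0.275, and 2 of the 22 were under 0.05 before adjustment. The smallest p that the 720 pairings can give is 0.00139.

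The closest relation was that of *Clock*, which ran opposite to *Dbp*. Under the *Gadd45a*-WT label, Pearson's r was -0.994 (exact permutation p = 0.0125, adjusted p = 0.275) and Spearman's rho was -0.886 (p = 0.0333, adjusted p = 0.244). Without the 2 libraries farthest from the median of *Dbp*, r was -0.961 over 4 libraries. Under the *Gadd45a*-KO label, r was -0.814 (exact permutation p = 0.0583, adjusted p = 0.382) and rho was -0.829 (p = 0.0583, adjusted p = 0.321), with an r of -0.886 without the 2 farthest libraries. Both labels thus gave a negative r, and *Clock* was lowest where *Dbp* was highest, in *Gadd45a*-WT replicates 1 and 4 and in *Gadd45a*-KO replicates 3 and 6. The 6 libraries labelled *Gadd45a*-WT do not fill the range of *Dbp* evenly, as 2 lie above 58 CPM and 4 between 43.4 and 48.8 CPM.

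*Nr1d1* ran with *Dbp*, with an r of 0.836 under the *Gadd45a*-WT label (rho 0.886, exact permutation p = 0.0472 for r, adjusted p = 0.382) and of 0.663 without the 2 libraries farthest from the median of *Dbp*. Under the *Gadd45a*-KO label its r was 0.478 (rho 0.314, exact permutation p = 0.339, adjusted p = 0.742), and 0.616 without the farthest 2. *Per1* had an r of 0.703 and 0.658 in the 2 labels, and *Cry2* one of 0.686 and 0.202, with unadjusted exact p-values from 0.0694 to 0.683. *Arntl*, which in most tissues peaks opposite to *Dbp*, had an r of -0.391 under the *Gadd45a*-WT label (rho -0.429, exact permutation p = 0.438) and -0.156 under the *Gadd45a*-KO label (rho -0.0857, exact permutation p = 0.750). *Npas2*, which is known to follow *Arntl*, had an r of 0.0286 and 0.365. *Nr1d2*, driven by the same activators as *Nr1d1*, had an r of -0.706 under the *Gadd45a*-WT label (exact permutation p = 0.156). Under the *Gadd45a*-KO label the r of *Nr1d2* was -0.0237 (exact permutation p = 0.967). Without the 2 libraries farthest from the median of *Dbp*, it was 0.564 and 0.495. *Cry1* had an r of -0.212 and -0.360 in the 2 labels, and *Per2* one of 0.379 and -0.151. *Per3* and *Tef* had opposite signs in the labels over all 6 libraries. The r was 0.120 and -0.627 for *Per3* and 0.0995 and -0.694 for *Tef*, none of them under an exact p of 0.05. These signs depended on the 2 libraries farthest from the median of *Dbp*. Without them, r was negative in both labels, at -0.933 and -0.581 for *Per3* and -0.997 and -0.852 for *Tef*. For *Per2* it was then -0.816 and -0.941, over 4 libraries each.

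**Figure D4:**
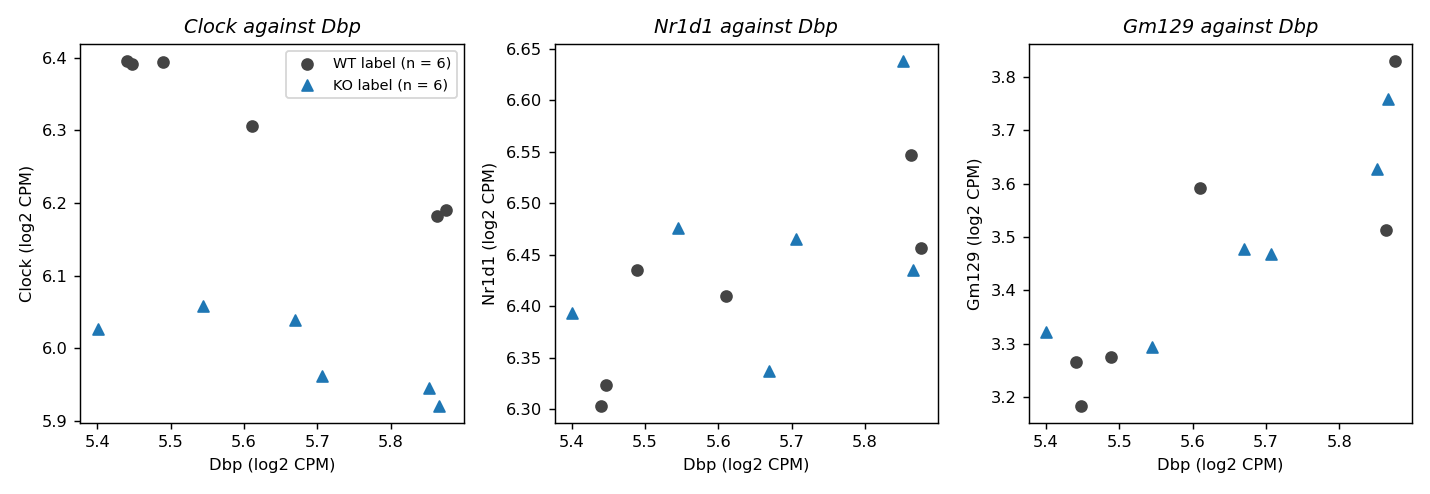
Log2 CPM of Clock, Nr1d1 and Gm129 (y axes) against that of Dbp (x axes) in the 6 libraries labelled Gadd45a-WT (circles) and the 6 labelled Gadd45a-KO (triangles). Clock falls with Dbp within each label on separate levels (r = -0.994 and -0.814), where the adjusted p missed 0.05 in both labels, and Gm129 rises with it (0.857 and 0.918, not tested).

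Same-numbered libraries of the labels were compared as well, because equal numbers would share clock gene levels if they marked a common time of collection. Over the 6 numbers, r was 0.627 for *Cry2*, 0.609 for *Nr1d2* and 0.590 for *Per2*, and it was -0.0463 for *Dbp*, -0.124 for *Clock* and 0.188 for *Nr1d1*. None of the 10 relations had an adjusted p under 0.05 (exact permutation test, smallest p = 0.149, smallest adjusted p = 0.667). The labels do not say what the number marks, and the part of collection time in the spread was not tested.

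The genes most like *Dbp* give the wider setting of these values. Over the 13864 tested genes with a mean of at least 1 CPM, the mean of the 2 within-label r with *Dbp* was highest for *Ndufc1* (0.952), *Eif4h* (0.939), *Ufsp1* (0.932), *Puf60* (0.928), *Atp5o* (0.909), *Dgcr6* (0.908), *Zfp593* (0.905), *Cxx1b* (0.904), *Trpt1* (0.903) and *Park7* (0.901). It was lowest for *Ubr2* (-0.962), *Appl1* (-0.953), *Zmym2* (-0.931), *Slc35b4* (-0.930), *Igf2r* (-0.929), *Tgs1* (-0.927), *Srcap* (-0.925), *Rad54l2* (-0.924), *Prpf4b* (-0.922) and *Uba6* (-0.918). None of these 20 is in the lists of clock genes. They differ in length: the 10 highest have a median exon length of 2000 nt and the 10 lowest of 7236.5 nt, against 3798.5 nt over all genes. Across the genes, which are not independent replicates, Spearman's rho between the mean r and the exon length was -0.464. The likeness of a gene to *Dbp* in these libraries therefore moved with its length, and the within-label r of *Clock*, one of the longer transcripts, was read against that.

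After log2 CPM was adjusted in each library by a smooth curve on transcript length, rho across genes was -0.0855. *Clock* then had an r with *Dbp* of -0.983 under the *Gadd45a*-WT label (exact permutation p = 0.0167, adjusted p = 0.183, r without the 2 farthest libraries -0.877) and of -0.477 under the *Gadd45a*-KO label (exact permutation p = 0.332, adjusted p = 0.581). Its place among all 13864 genes went from the 17th lowest mean r to the 128th lowest. *Cry2* had an r of 0.895 and 0.442 after the adjustment (exact permutation p = 0.00694 and 0.396, adjusted p = 0.153 and 0.581), and *Per1* one of 0.768 and 0.695. None of the 22 relations had an adjusted p under 0.05 on this scale either, and 3 were under 0.05 before adjustment.

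*Gm129*, the gene of the clock repressor CIART, was closest to *Dbp* among the clock genes listed, and it was singled out after its values were seen. It lay at 9.09 to 14.2 CPM under the *Gadd45a*-WT label and at 9.81 to 13.5 CPM under the *Gadd45a*-KO label (log2 fold change 0.04, adjusted p = 0.935, edgeR). Its r with *Dbp* was 0.857 and 0.918 in the 2 labels, the 13th highest mean r of all genes, and 0.857 and 0.909 after the adjustment for length, the 10th highest. *Nr1d1*, *Per1* and *Usp2*, a deubiquitinase gene with a daily rhythm, also lay above the middle range of genes of their length before and after the adjustment, with mean r of 0.657, 0.681 and 0.619 before it. *Clock* lay below that range on both scales, and *Per3* and *Tef* within it.

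**Figure D5:**
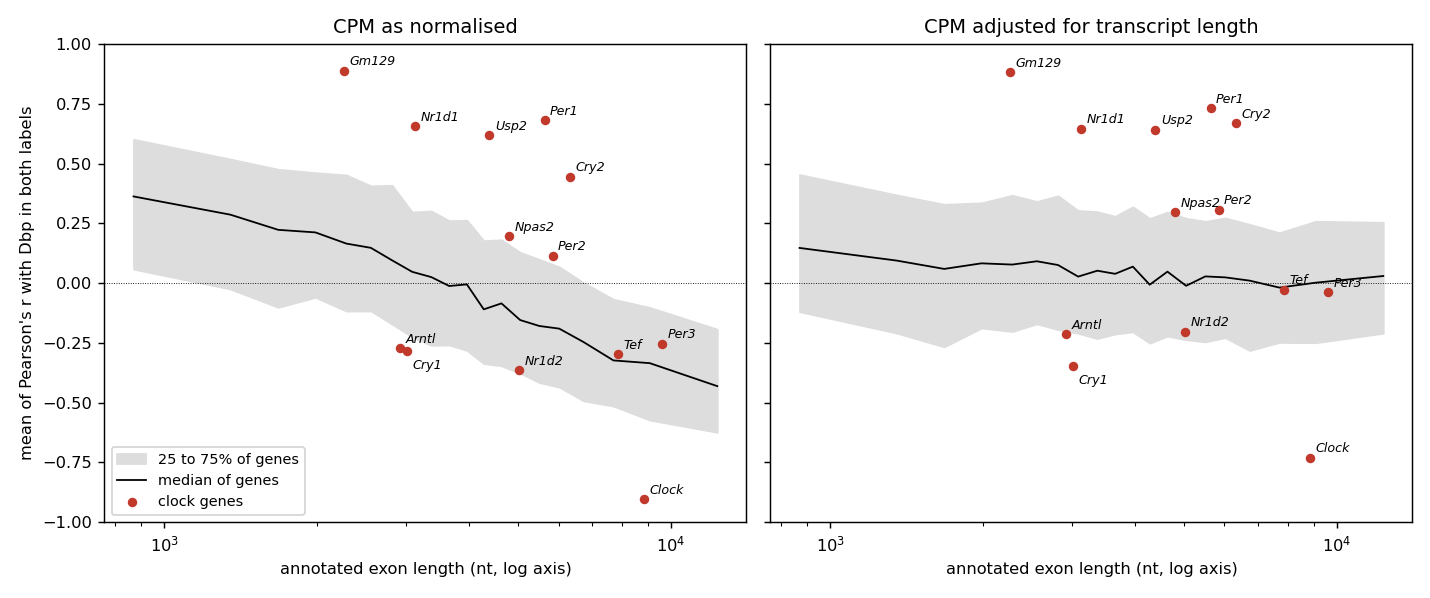
Mean of Pearson's r with Dbp in both labels (y axis) against annotated exon length (x axis, log scale) before (left) and after (right) an adjustment for transcript length. The line is the median and the grey band the middle 50% of genes in bins of length, red points are clock genes, and the slope on the left (rho = -0.464 across genes) is nearly gone on the right (-0.0855), where Gm129 stays at the top and Clock at the bottom.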

How the data were processed

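The authors prepared stranded poly(A) libraries from hippocampal RNA, aligned the reads to NCBIM37 (mm9) with TopHat 1.4.1 and deposited read counts per Ensembl gene from HTSeq 0.5.4p3, made with the strand taken into account and neither normalized nor pooled. The submitters' processing notes also name SAMtools and DESeq 1.16.0. Replicate numbers and conditions come from the labels, which say that the animals were siblings. The paper gives a younger age range for its mice than the labels.

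Symbols were matched by Ensembl ID (37205 of 37991 IDs). The 10 members and all lists were chosen with earlier results of these data known. Counts were filtered, TMM normalized and tested with edgeR 4.0.16 (R 4.3.3; quasi-likelihood, no covariates, 1% FDR over 16399 genes). Standard errors were derived from each log2 fold change and its F statistic. Log2 CPM used a prior count of 2. DESeq2 1.42.0 and the other alternatives are given in the closing part. Offsets for length and GC content were splines with 5 degrees of freedom over 16365 genes. Python 3.11.15 (scipy 1.17.1) served for permutation and correlation tests. The procedures were checked on simulated data.

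All members were named, the other clock genes by counts, with values for *Arntl*, *Per1*, *Hlf*, *Nfil3* and any called, and the 10 genes most and least like *Dbp*. At 1% FDR, *Zbtb20* was lower among 9 tested hippocampal neuron markers (median log2 fold change -0.19). By edgeR, 0 of 9 thalamic markers (median 0.91, 6 with an unadjusted p under 0.05), 0 of 8 choroid plexus (0.45, 1), 0 of 8 oligodendrocyte (0.45, 8), 0 of 8 astrocyte (0.10, 3), 0 of 8 microglia (0.08, 1) and 0 of 8 endothelial markers (0.11, 1) were called. Over all genes tested, 13.7% had an unadjusted p under 0.05 (edgeR). DESeq2 called *Zbtb20* and 0 of the other markers.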

Additional observations from a re-analysis of the deposited data

Results flagged for a closer look

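In 56 groups of 6 libraries (28 clock genes in each label), the highest or lowest library was compared with the others by Dixon's ratio, the gap to the nearest library over the whole range. In 2 groups this ratio exceeded its 95% critical value for 6 libraries, where chance gives about 2.80. *Tef* in *Gadd45a*-WT replicate 3 was at 404 CPM, while the other 5 libraries of that label lay between 451 and 477 CPM (ratio 0.640). *Nfil3* in *Gadd45a*-KO replicate 4 was at 6.27 CPM, against 7.50 to 7.83 CPM in the others (ratio 0.792). *Gadd45a*-WT replicate 3 was also the lowest library of its label for *Per2*, *Per3*, *Cry1* and *Arntl*, and *Gadd45a*-KO replicate 4 the lowest of its label for *Per3*, *Cry1*, *Nr1d2* and *Hlf*.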

How the results depend on the processing

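*Clock* was lower at 1% FDR in all 24 alternative fits (adjusted p 1.33e-08 to 0.00545). The number of members lower was 2 in place of 1 at 5% FDR, with the replicate number as a block and with the block and the GC offset, the second being *Per2* (-0.21 and -0.24 in the blocked fits, adjusted p = 0.00861 and 0.00771, edgeR). Same-numbered libraries correlated at 0.140 on average against -0.0279 for other pairs, 5 of 6 pairs were over 0.1, and 4 of 12 libraries correlated best with their own number, so the numbers were not taken to pair the mice. The block gave 509 genes lower and 5 higher. The other clock genes had 1 higher in place of 0 (*Rorb*) with RLE factors, no filter, either offset with or without the block, DESeq2, 5% FDR and without *Gadd45a*-KO replicate 1. Over all genes, 275 were lower with the length offset, 252 with the thalamic and 225 with the oligodendrocyte covariate, 199 without *Gadd45a*-KO replicates 2 and 3, 661 by DESeq2 and 726 at 5% FDR, in place of 430. In the same way 9 were higher with the length offset, 15 with the GC offset, 10 and 16 with the block and the length or GC offset, 2 with the thalamic covariate, 19 by DESeq2 and 20 at 5% FDR, in place of 4.

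Members with estimates near 0 changed sign, none of them called. *Tef* was 0.00838 with the length offset, 0.00763 with the block and that offset and 0.0116 with the oligodendrocyte covariate. *Cry1* was -0.00469 with the GC offset, -0.00358 and -0.0112 with the block and the length or GC offset, -0.0372 with the thalamic covariate, -0.0319 without *Gadd45a*-KO replicates 2 and 3 and between -0.0237 and 0.0757 without single libraries. *Nr1d2* was 0.0142 with the GC offset and 0.0132 with the block added. *Npas2* was 0.0248 and 0.0390 with the thalamic and oligodendrocyte covariates and 0.00346 without *Gadd45a*-KO replicates 2 and 3. *Nr1d1* was -0.0215 and *Dbp* -0.00149 with the oligodendrocyte covariate. The cause was not tested. Without single libraries, all genes lower numbered 239 to 467 and other clock genes higher 0 to 1. The percentile of the SD of *Cry2* among all genes was 0.0976 to 2.02, and 0.0976 was the value without *Gadd45a*-WT replicate 4, against 1.12 with all libraries. Both marker covariates, the fit without *Gadd45a*-KO replicates 2 and 3 and the length-adjusted correlations were chosen after seeing the data. In all, 496 values under alternatives kept their direction and side of the threshold or, for counts, stayed within 1.5 times.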
